A study of Mus musculus with 4 samples.

Results

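Ribosomal protein genes were taken as all genes whose symbol in the platform annotation is Rpl or Rps followed by a digit, without pseudogenes and without the Rps6k kinases, on probe sets with 1 symbol. The choice gave 47 of the 18193 named genes, on 102 of 34945 probe sets with 1 symbol. Of the 47, 20 encode proteins of the large ribosomal subunit, 20 encode proteins of the small subunit, 6 are paralogs or relatives of such genes, and 1, Rps19bp1, encodes a protein that binds Rps19 and is no subunit of the ribosome. A list of 73 genes for subunit proteins named in this way held these 40, and the others had no probe set with their symbol alone.

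The arrays measured RNA of SL4 cells, a mouse colon carcinoma line, and of Kupffer cells, which are liver macrophages, after 8 hours in culture. The Kupffer cells were sorted as positive for CD45, CD11b and the antigen encoded by Adgre1. Their donors were female C57BL/6 mice, 12 weeks old, either Clec4n-/- and so without Dectin-2, or wild type. The 4 groups were knockout co-culture, wild-type co-culture, knockout separate culture and wild-type separate culture, and SL4 cells were part of all of them. For separate culture the cell types were kept apart, and their RNAs were mixed afterwards. Each group had 1 array, so no difference was tested, no p-value is given, and a difference between arrays cannot be told apart from a difference between groups.

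The ribosome is built from ribosomal RNAs and a large set of mostly small, basic proteins, which are needed in nearly equal numbers. Their mRNAs are among the most abundant in growing cells, tumour cell lines included. Many of them start with a C and a run of pyrimidines, called the 5′ terminal oligopyrimidine tract, through which the kinase mTOR and the RNA-binding protein Larp1 control their translation. That control acts on protein synthesis, which arrays of total RNA do not measure.

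Such tracts were looked for at the start sites of the members, a feature that the choice by symbol did not use. In the RefSeq promoter sequences (build GRCm38.p6) 41 of the 47 genes were matched, and 7 of the 41 had at an annotated start a C followed by at least 4 pyrimidines, that is 17.1%, against 3.01% of 27025 genes with a promoter in the same table. Their sequences are shown because they are the members whose annotated start carries the tract, each with 35 bases before the start and 21 from the start on, and with the tract in capitals. They are written 5′ to 3′ on the strand of the gene.
Rpl14: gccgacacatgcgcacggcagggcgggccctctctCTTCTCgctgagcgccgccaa
Rpl35: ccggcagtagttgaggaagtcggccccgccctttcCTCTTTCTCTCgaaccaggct
Rpl38: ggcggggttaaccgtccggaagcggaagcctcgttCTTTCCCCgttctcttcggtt
Rps6: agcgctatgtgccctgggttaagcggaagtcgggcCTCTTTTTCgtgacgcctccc
Rps10: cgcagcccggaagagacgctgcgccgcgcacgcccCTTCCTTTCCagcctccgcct
Rps18: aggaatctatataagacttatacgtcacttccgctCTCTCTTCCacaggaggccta
Rps27: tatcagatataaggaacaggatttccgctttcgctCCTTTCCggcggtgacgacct

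The windows lie at chr9:120571482-120571537 (plus strand) for Rpl14, chr2:39005111-39005166 (minus strand) for Rpl35, chr11:114668545-114668600 (plus strand) for Rpl38, chr4:86857347-86857402 (minus strand) for Rps6, chr17:27635224-27635279 (minus strand) for Rps10, chr17:33955645-33955700 (minus strand) for Rps18 and chr3:90213628-90213683 (minus strand) for Rps27. Each covers the end of the proximal promoter and the first bases of the transcript. An annotated start can be off by some bases, so the count covers only starts placed exactly. The core motif of ETS family factors, CTTCCG, searched on both strands of the 300-base promoters as CTTCCG or CGGAAG, was in 29 of the 41 genes, 70.7%, against 18.8% of all genes; this motif was chosen after the sequences had been seen. It stands in the printed windows of Rpl38, Rps6, Rps10 and Rps18, in lower case. A match of letters is a description and not a binding site.

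A floor of 76.1, the median of all probe set signals over the 4 arrays, was used to tell signal from background. Clec4n, the deleted gene, lay under the floor on all 4 arrays, and the higher of its probe sets gave 8.19 in knockout co-culture, 17.6 in wild-type co-culture, 8.29 in knockout separate culture and 14.2 in wild-type separate culture. Of 20 macrophage markers 9 were above the floor. The summed signals of all 20 were 2426 in knockout co-culture, 2483 in wild-type co-culture, 2450.4 in knockout separate culture and 2071 in wild-type separate culture. Ptprc, which encodes CD45, Itgam, which encodes CD11b, Adgre1 and the Kupffer cell gene Clec4f lay under it in all 4 arrays. The measured macrophage markers had median log2 ratios of 0.26 for co-culture in wild type, 0.29 for co-culture in knockout, 0.09 for the genotypes in co-culture and 0.17 for the genotypes in separate culture, where Cd68 was 1.55-fold higher. C1qb, a complement gene of macrophages, was 2.63-fold higher for co-culture in wild type, where 7 of 9 markers were higher. The 2 lower ones were Fcer1g at a log2 ratio of -0.33 and Csf1r at -0.19. For co-culture in knockout 7 were higher and 2 lower, Laptm5 at -0.29 and Cd53 at -0.23. For the genotypes in separate culture 6 were higher in knockout and 3 lower, Cd5l at -0.32, Lyz2 at -0.23 and Csf1r at -0.17. For the genotypes in co-culture 6 were higher, among them Fcer1g 1.82-fold and Tyrobp 1.54-fold, and 3 lower, down to Lyz2 at -0.57. Fcer1g read 79.1 in wild-type co-culture, close to the floor, and both of its ratios given here use that value. Of 15 epithelial markers 3 were above the floor in some array, all 15 with summed signals between 1074 and 1190, and of 13 mesenchymal markers 9 were. The sum over all 13 mesenchymal markers was 31233 in knockout co-culture, 33081 in wild-type co-culture, 32393 in knockout separate culture and 36119 in wild-type separate culture. The measured mesenchymal markers had median log2 ratios of -0.32 for co-culture in wild type, where 4 of 8 were at least 1.2-fold lower, and -0.19 for co-culture in knockout, where 4 of 9 were. Of all genes measured, 15.4% were 1.2-fold lower for co-culture in wild type and 17.9% in knockout. For co-culture in wild type Pdgfrb was 1.86-fold lower and Acta2 1.66-fold lower. In the same comparison 2 of the 8, Cdh2 and Fn1, were higher, each at a log2 ratio of 0.10. Pdgfrb read 82 in wild-type co-culture, close to the floor, and was 1.75-fold higher in knockout co-culture than there. The part of these markers in the members' ratios was not tested.

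Most of the members gave very bright signals. The median over members of the signal of each gene's brightest probe set was 10122 in knockout co-culture, 10722 in wild-type co-culture, 9216 in knockout separate culture and 10687 in wild-type separate culture, in MAS5 units scaled by the authors. Of the 47 genes, 30 had a mean signal over the arrays of at least 8000, which is 63.8%, against 197 of the 18146 other genes, 1.09%. Rps29, a small zinc-binding protein of the small subunit, was brightest at 17465 in knockout co-culture, 18834 in wild-type co-culture, 15298 in knockout separate culture and 18489 in wild-type separate culture. Signals of different probe sets depend on their probes and give no order of transcript amounts. In mixed RNA, fewer cells of a type and less RNA per cell cannot be told apart, and whether the members' signals came from SL4 or from Kupffer cells was not tested.

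**Figure D1:**
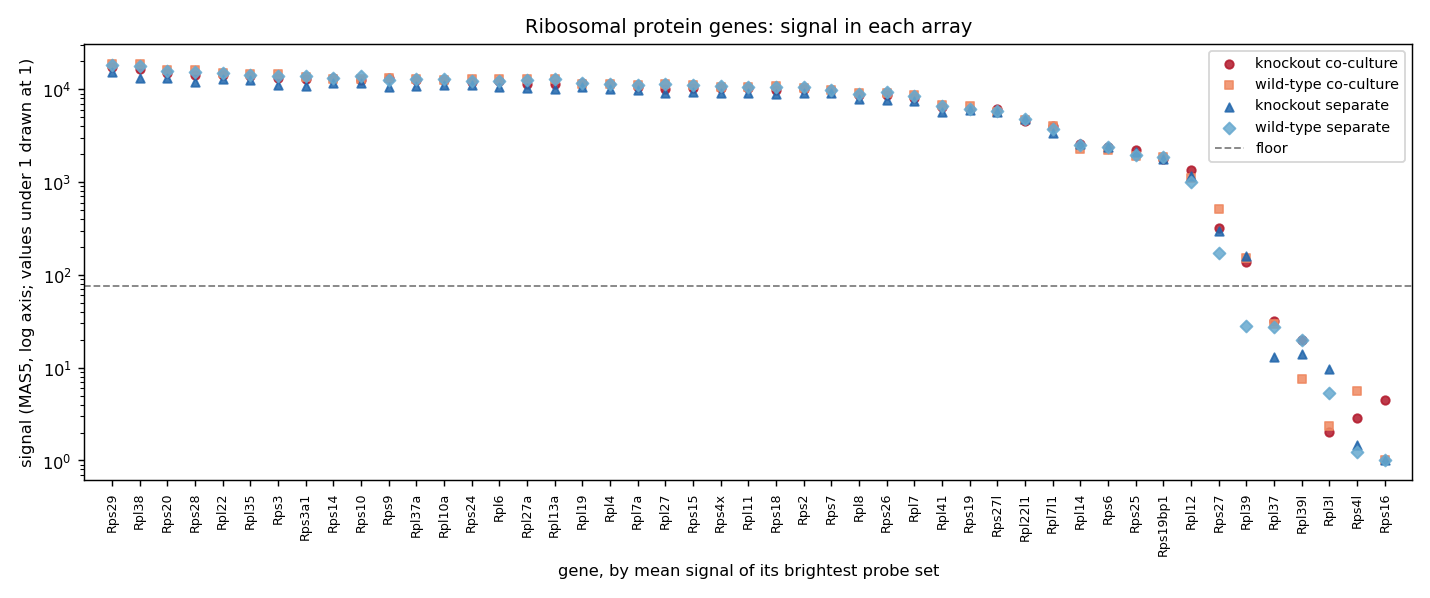
Signal of the 47 ribosomal protein genes in each of the 4 arrays on a log axis, 1 point per array, by the brightest probe set of each gene, ordered by mean signal; the dashed line is the floor of 76.1. The points of most genes lie on top of each other, with the knockout separate array slightly under the other arrays among the bright genes, while Rps27 and Rpl39 spread and 5 genes stay under the floor.

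At the other end, 5 genes lay under the floor in all 4 arrays. The muscle paralog Rpl3l read 2.04 in knockout co-culture, 2.33 in wild-type co-culture, 9.63 in knockout separate culture and 5.32 in wild-type separate culture. The testis paralog Rpl39l read 20.1 in knockout co-culture, 7.53 in wild-type co-culture, 14.1 in knockout separate culture and 20 in wild-type separate culture, and Rps4l, a relative of Rps4x, had 2.87 in knockout co-culture, 5.67 in wild-type co-culture, 1.46 in knockout separate culture and 1.23 in wild-type separate culture. None of these 3 paralogs had a signal above the floor in any array.

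The remaining pair are standard subunit genes, Rpl37 and Rps16, which every growing cell makes. Rpl37 read 32 in knockout co-culture, 29.4 in wild-type co-culture, 13 in knockout separate culture and 27.2 in wild-type separate culture, and Rps16 read 4.54 in knockout co-culture, 0.682 in wild-type co-culture, 0.543 in knockout separate culture and 0.469 in wild-type separate culture. Each was measured by its only probe set with 1 symbol, so these values say that this probe set gave no signal above the floor, not that the gene is silent. There were 109 further probe sets that listed a ribosomal protein gene among several symbols, and they are not named here. As a group they were bright, with a median of their mean signals of 9894, and 70 of them reached 8000.

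Other paralogs were bright. Rps27l, a paralog of Rps27 known as a target of the tumour suppressor Trp53, read 6119 in knockout co-culture, 5723 in wild-type co-culture, 5647 in knockout separate culture and 5831 in wild-type separate culture. Rpl22l1, a paralog of Rpl22, had 4578 in knockout co-culture, 4675 in wild-type co-culture, 4847 in knockout separate culture and 4764 in wild-type separate culture, and it had the smallest range over the arrays of the members above the floor in all of them, 0.08 on the log2 scale. Rpl7l1, a nucleolar relative of Rpl7 that takes part in assembly of the large subunit, gave 4004 in knockout co-culture, 4055 in wild-type co-culture, 3395 in knockout separate culture and 3695 in wild-type separate culture. The binding protein Rps19bp1 ranged over 0.09, with 1764 in knockout co-culture, 1873 in wild-type co-culture, 1771 in knockout separate culture and 1844 in wild-type separate culture. By its brightest probe set, none of these 4 genes was 1.2-fold apart in any of the 4 pairwise comparisons. The dimmest probe set of Rpl7l1 was, with log2 ratios of 0.48 for the genotypes in separate culture and 0.27 for co-culture in wild type.

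The members above the floor in all 4 arrays numbered 41. Their range over the arrays, the highest minus the lowest log2 signal, had a median of 0.24, against 0.28 for the 9686 other genes above the floor in all arrays, and 40 of the 41 ranged over less than 0.5, as did 7723 of the 9686. The range depends on signal. Among genes with a mean signal of 8000 to 12000 the median range was 0.22 for 16 members and 0.20 for 160 other genes, of which 159 ranged over less than 0.5, and above 12000 it was 0.27 for 14 members and 0.35 for 37 other genes.

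Rps27, which encodes a zinc-finger protein of the small subunit, had the largest range of the members. Its only probe set with 1 symbol read 324 in knockout co-culture, 516 in wild-type co-culture, 295 in knockout separate culture and 174 in wild-type separate culture. The wild-type co-culture array was the highest and the wild-type separate array the lowest, with the knockout arrays between them. Co-culture over separate culture was 2.97-fold in wild type, a log2 ratio of 1.57, and 0.14 on the log2 scale in knockout. The probe set lies far under those of most members in level.

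Rpl39, a very small protein that lines the exit tunnel of the nascent chain, came next in range. Its probe set read 139 in knockout co-culture, 150.3 in wild-type co-culture, 159 in knockout separate culture and 28.3 in wild-type separate culture. The wild-type separate array lay under the floor and the other 3 arrays lay close together, so co-culture over separate culture in wild type was at least 1.98-fold, and knockout over wild type in separate culture at least 2.09-fold. In knockout the co-culture log2 ratio was -0.20. Of all members, read by their brightest probe sets, only Rps27 and Rpl39 were at least 1.5-fold apart in any of the 4 pairwise comparisons. Each rested on 1 dim probe set, the only one with its symbol alone. Further dim probe sets of other members also passed 1.5-fold. A probe set of Rps18 had a log2 ratio of -0.68 for knockout over wild type in co-culture. A probe set of Rpl35 had 0.80 for co-culture in wild type.

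The first comparison asked what co-culture with the tumour cells did to these genes when the Kupffer cells were wild type. Nearly all members were level: the median log2 ratio over the 42 measured members was 0.01, against -0.02 over all 10417 genes measured, and it turned to -0.0088 after quantile normalization. At least 1.2-fold higher in co-culture were 2 of 42 members, Rps27 and Rpl39, where 12.5% of all genes were, and 0 of 42 were 1.2-fold lower, where 15.4% of all genes were. The same 2 members passed 1.5-fold, where 3.31% of all genes were higher and 3.39% lower. When the arrays were scaled to a common median of all probe sets the members' median turned to -0.10, with that of all genes at -0.13, so relative to all genes it was as before.

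The members next to Rps27 at the upper end in wild type were Rpl12, a protein of the stalk base, at a log2 ratio of 0.17, Rpl7l1 at 0.13, Rps19, whose human gene is mutated in Diamond-Blackfan anaemia, at 0.10 and Rps9 at 0.08. At the lower end were Rpl14 at -0.11, Rps6, the substrate of the Rps6k kinases, at -0.11, Rps10 at -0.09, Rpl19 at -0.05 and Rps3a1 at -0.03. Without Rps27 and Rpl39 the members thus lay between -0.11 and 0.17. The large subunit genes had a median of 0.02 over 19 genes and the small subunit genes of -0.01 over 19.

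With knockout Kupffer cells, co-culture had slightly higher signals than separate culture for 37 of 42 members, where 4908 of 10444 genes were higher. The median log2 ratio was 0.16, against -0.02 over 10444 genes, and after quantile normalization of the arrays it was 0.0046. At least 1.2-fold higher were 4 members, 9.52%, where 10.8% of all genes were, and 0 were 1.2-fold lower, where 17.9% were. At 1.5-fold 0 members were called, where 2.5% of all genes were higher and 4.28% lower. The medians of the subunits were alike, 0.16 for 19 large subunit genes and 0.15 for 19 small subunit genes.

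The 4 were Rpl38, Rps9, Rps28 and Rps3a1. Rpl38 and Rps3a1 had 1 probe set each with their symbol alone. Further bright probe sets of Rps9 and Rps28 were above 0 but stayed under 1.2-fold. Their log2 ratios were 0.16 for Rps9, and 0.22 and 0.25 for Rps28. Rpl38, known from mouse embryos for its part in the translation of Hox mRNAs, read 16649 in knockout co-culture, 18554 in wild-type co-culture, 13175 in knockout separate culture and 17960.4 in wild-type separate culture, which in knockout is 1.26-fold higher in co-culture. Rps9 read 13194 in knockout co-culture, 13373 in wild-type co-culture, 10602 in knockout separate culture and 12672 in wild-type separate culture, 1.24-fold higher in knockout co-culture than in knockout separate culture. In both genes the knockout separate array was the lowest of the 4 and the other 3 lay closer together. Rps28 had a knockout log2 ratio of 0.28, Rps3a1 of 0.27 and Rpl7l1 of 0.24, and at the lower end stood Rpl39 at -0.20, Rpl22l1 at -0.08, Rps6 at -0.02, Rpl14 at -0.02 and Rps19bp1 at -0.01.

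The genotype comparison in separate culture set RNA of knockout against RNA of wild-type Kupffer cells, both cultured without tumour cells. In both arrays it was mixed with RNA of SL4 cells. Here 36 of 42 members had a lower signal with knockout than with wild-type Kupffer cells, where 5072 of 10362 genes were lower. The median log2 ratio was -0.20, against 0.0045 over 10362 genes, and it was 0.010 after quantile normalization, which turned its direction. At least 1.2-fold lower were 10 of 42 members, 23.8%, where 8.23% of all genes were, and 2, Rps27 and Rpl39, were 1.2-fold higher, where 11.7% of all genes were. These 2 were also 1.5-fold higher, where 1.74% of all genes were, and 0 members were 1.5-fold lower, where 1.05% were. Among genes with a mean signal of at least 12000, 6 of 14 members and 62.2% of 37 other genes were 1.2-fold lower. Between 8000 and 12000, 4 of 16 members and 16.25% of 160 other genes were. After quantile normalization 0 members were 1.2-fold lower. On the authors' scale the 19 large subunit genes had a median of -0.20, the 19 small subunit genes of -0.24 and the 3 measured paralogs of -0.05.

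The lowest ratio was that of Rpl38, 1.36-fold lower in knockout separate culture. Rps3a1, a protein of the small subunit, read 12956 in knockout co-culture, 13662 in wild-type co-culture, 10744 in knockout separate culture and 13980.3 in wild-type separate culture, a log2 ratio of -0.38. Rpl13a, which also takes part in the silencing of inflammatory transcripts, read 11347 in knockout co-culture, 12801 in wild-type co-culture, 10035 in knockout separate culture and 12864 in wild-type separate culture, a log2 ratio of -0.36. A dimmer probe set of Rpl13a, at a mean signal of 6174, went the other way, with 0.08 in separate culture and 0.19 in co-culture. Its further probe sets had -0.20 and -0.21 in separate culture, and -0.03 and -0.11 in co-culture. By the brightest probe set of each of these genes, the knockout co-culture array lay under the wild-type arrays and the knockout separate array was the lowest. This array is also the denominator for co-culture in knockout, so both comparisons read the same low values.

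Rps28 followed with 14418 in knockout co-culture, 16016 in wild-type co-culture, 11913 in knockout separate culture and 15189.8 in wild-type separate culture, a log2 ratio of -0.35, and Rps3, a protein at the mRNA entry channel, with 13197 in knockout co-culture, 14525 in wild-type co-culture, 11269 in knockout separate culture and 14058 in wild-type separate culture, a log2 ratio of -0.32. The members at the upper end, after Rps27 at 0.76 and apart from the bound of Rpl39, were not among the brightest. Rpl12 read 1346 in knockout co-culture, 1113 in wild-type co-culture, 1178 in knockout separate culture and 991 in wild-type separate culture, a log2 ratio of 0.25. Rps25, a small subunit protein, had 2209 in knockout co-culture, 1916 in wild-type co-culture, 2111 in knockout separate culture and 1954 in wild-type separate culture, a log2 ratio of 0.11. Rpl14 stood at 0.06 and Rpl22l1 at 0.03.

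The size of this difference went with signal, inside the family and outside it. Among genes with a mean signal of at least 12000 the median log2 ratio of knockout over wild type in separate culture was -0.25 for 14 members and -0.30 for 37 other genes. Between 8000 and 12000 it was -0.21 for 16 members and -0.17 for 160 other genes, and between 4000 and 8000 it was -0.03 for 4 members and -0.08 for 828 other genes. Between 2000 and 4000 it was 0.03 for 4 members and -0.02 for 1452 other genes. Other genes of the same brightness thus had ratios of a similar size. In co-culture, which does not use the knockout separate array, knockout over wild type also had lower medians in the brightest class, -0.07 for 14 members and -0.14 for 37 other genes, and between 8000 and 12000 it had -0.08 for 16 members and -0.03 for 160 other genes.

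By rank, the knockout separate array held the lowest signal of 30 of 30 members with a mean signal of at least 8000, and of 179 of 197 other genes that bright, 90.9%. Over all signals it held the lowest value of 34 of 41 members, and of 24.9% of 9686 other genes. The highest signal of any probe set was 19613 in knockout co-culture, 20599 in wild-type co-culture, 18258 in knockout separate culture and 20755 in wild-type separate culture. When each member's ratio was taken relative to the median of the other genes of its signal class, which was added after the data had been seen, the members' median was 0.0076 in the separate-culture genotype comparison, with 0 members 1.2-fold lower, and 0.020 for co-culture in knockout.

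**Figure D2:**
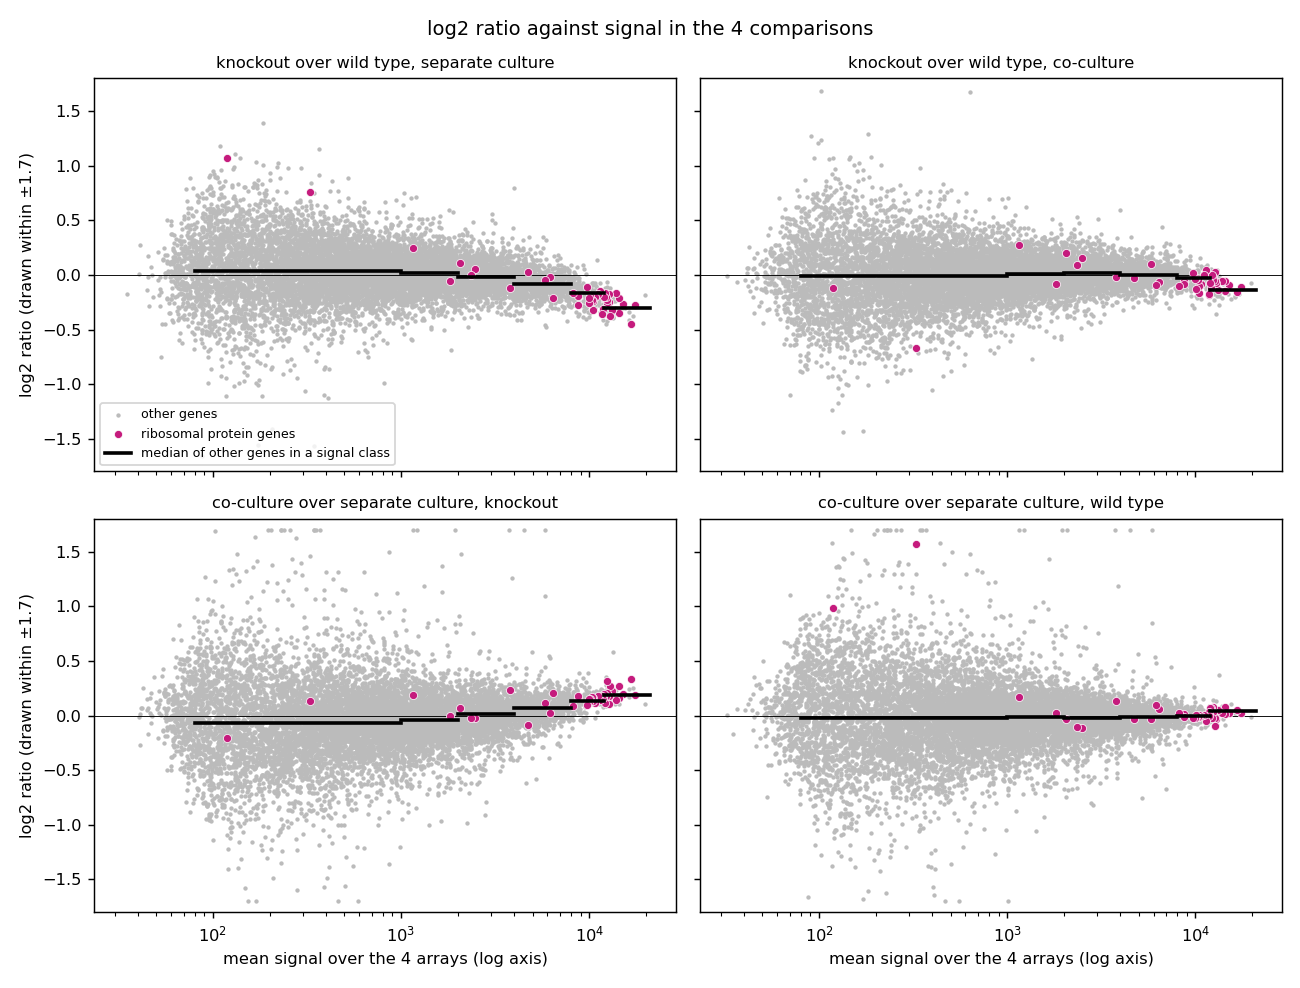
Log2 ratio of each gene against its mean signal over the 4 arrays (log axis) in the 4 pairwise comparisons, with ribosomal protein genes in magenta, other genes in grey and black bars for the median of the other genes in each signal class. In both comparisons that use the knockout separate array the bars bend away from 0 above a signal of 4000, and the magenta points follow them, whereas in wild-type co-culture over separate culture they stay near 0. For knockout over wild type in co-culture the bar of the brightest class is also below 0, at -0.14.

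Within single genes that had bright and dim probe sets, the ratio also went with signal, in the same direction. There were 12 members with at least 1 probe set of mean signal 4000 or more and at least 1 under 4000, all above the floor in every array. In 11 of the 12 the dim probe sets had a higher log2 ratio of knockout over wild type in separate culture than the bright ones, with a median over genes of 0.14 for dim and -0.19 for bright probe sets. The exception was Rpl37a. The dim median lay above those of other genes of low mean signal. These were 0.04 under 1000, 0.02 from 1000 to 2000 and -0.02 from 2000 to 4000. The split at 4000 was set after the data had been seen.

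Rpl41, the smallest protein of the ribosome, is an example chosen after its values were seen. Its brightest probe set read 6530.2 in knockout co-culture, 6833 in wild-type co-culture, 5670.1 in knockout separate culture and 6552 in wild-type separate culture, a log2 ratio in separate culture of -0.21. A dim probe set of this gene read 488 in knockout co-culture, 543 in wild-type co-culture, 567 in knockout separate culture and 394 in wild-type separate culture, a log2 ratio of 0.53. The first put knockout separate culture lowest of the arrays, and the second put it highest. Its other probe sets under 4000 went both ways, with log2 ratios of 0.43 and -0.22. The latter, at a mean signal of 3359, put knockout separate culture lowest again. For co-culture over separate culture in wild type the 12 genes had a median of 0.08 in dim and 0.03 in bright probe sets, and in knockout of -0.03 in dim and 0.18 in bright ones.

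**Figure D3:**
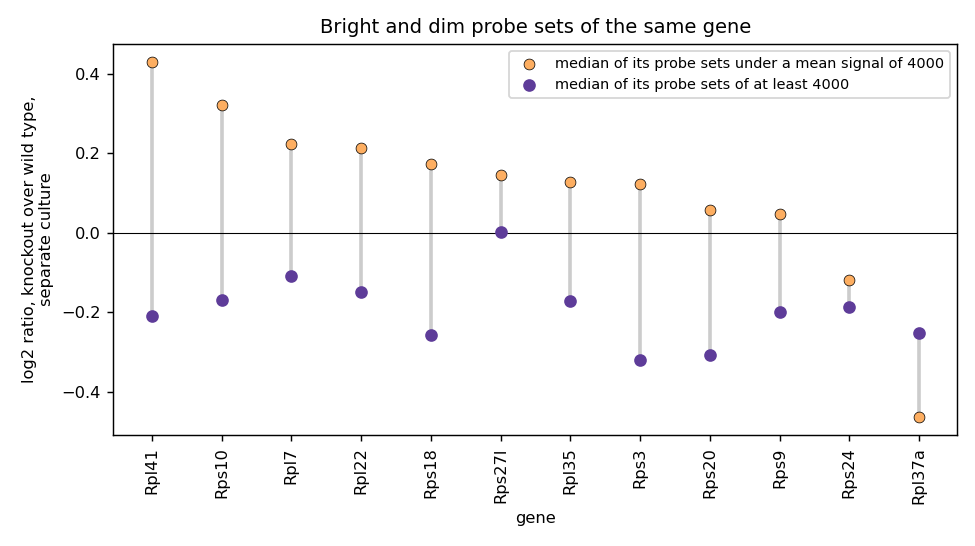
Median log2 ratio of knockout over wild type in separate culture for the dim (under a mean signal of 4000, orange) and bright (at least 4000, purple) probe sets of the 12 ribosomal protein genes that have both, joined by a line per gene. Dim probe sets lie above bright ones in 11 genes, and below in Rpl37a.

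In co-culture the genotype comparison, which asks what the loss of Dectin-2 does while both cell types are together, gave smaller ratios. The median over 42 members was -0.06, against -0.0021 over 10399 genes. In knockout 33 members had a lower signal, where 5254 of the 10399 genes were lower. After quantile normalization the median turned to 0.017, and relative to other genes of the same signal class it was -0.0070. At least 1.2-fold higher was 1 member, Rpl12, where 9.17% of all genes were, and 1.2-fold lower was 1, Rps27, where 10.5% were. Rps27 was 1.59-fold lower in knockout co-culture, opposite to its direction in separate culture. At 1.5-fold 0 members were higher, where 1.51% of all genes were, and Rps27 alone was lower, where 1.48% were.

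By their brightest probe sets, the lowest members after Rps27 were Rpl27a at a log2 ratio of -0.18, Rpl13a at -0.17, Rpl27 at -0.17 and Rpl38 at -0.16. Highest after Rpl12, at 0.27, were Rps25 at 0.21, Rpl14 at 0.15, Rps27l at 0.10 and Rps6 at 0.09. Members that were low in one culture condition were mostly low in the other: over the 40 members with a mean signal of at least 1000 the genotype log2 ratios of the conditions, which share no array, had a Pearson's r of 0.83 and a Spearman's rho of 0.71, and 30 of 40 were below 0 in both. This is a description across genes that share their arrays and their range of signal. In wild type and knockout the co-culture log2 ratios of the 40, also without a shared array, had r = 0.47 and rho = 0.51. With Rps27 added, r was -0.12 over 41 members between the genotype comparisons and 0.08 between the co-culture comparisons, with rho at 0.59 and 0.47, so both r values rest on leaving out that gene.

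The difference between the co-culture changes, knockout minus wild type, had a median of 0.14 over the members, against 0.0022 over 10637 genes, and of 0.029 after quantile normalization. It uses all 4 arrays and repeats the low values of the knockout separate array. At least 1.2-fold higher in this difference were 2 members, where 12.3% of all genes were, namely Rps3a1 at 0.30 and Rpl38 at 0.29, followed by Rps9 at 0.24. At least 1.2-fold lower were 2, where 16.9% were, namely Rps27 at -1.44 and Rpl39 at -1.18, the second with wild-type separate culture set to the floor, and Rps19 came next at -0.07. At 1.5-fold these 2 stayed lower, where 4.32% of all genes were, and 0 members were higher, where 2.6% were.

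Probe sets of the same gene mostly differed more than arrays did. Of the 47 genes, 23 had several probe sets with 1 symbol, up to 6. The highest and lowest probe set of a gene differed by a median of 17.5-fold in mean signal raised to the floor, and by more than 8-fold in 13 of the 23. The largest spreads were at least 173-fold in Rps3, 158-fold in Rps24, 155-fold in Rpl27a and 135-fold in Rps4x, each with a probe set under the floor, and 103-fold in Rps18. The smallest were 1.06-fold in Rps28, 1.08-fold in Rpl27 and 1.47-fold in Rps27l.

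For Rps3 the probe sets read 13197 in knockout co-culture, 14525 in wild-type co-culture, 11269 in knockout separate culture and 14058 in wild-type separate culture for the brightest, and 1815 in knockout co-culture, 1774 in wild-type co-culture, 1888 in knockout separate culture and 1733 in wild-type separate culture for the next. The dimmest gave 9.91 in knockout co-culture, 4.36 in wild-type co-culture, 10.8 in knockout separate culture and 17 in wild-type separate culture. The probe sets kept this order in all 4 arrays. By the ending of the ID, which in this array family tells how specific a probe set is, the 40 probe sets ending in _x_at had a median of mean signals of 10914 and the 27 ending in _a_at of 10038, against 498 for the 32 plain _at ones. Of the 10 probe sets that were under the floor in all arrays, 8 were plain _at and 2 ended in _x_at. Probe sets ending in _x_at can also bind transcripts of other genes, and processed pseudogenes of ribosomal proteins are many in the mouse genome; their part in these signals was not tested.

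**Figure D4:**
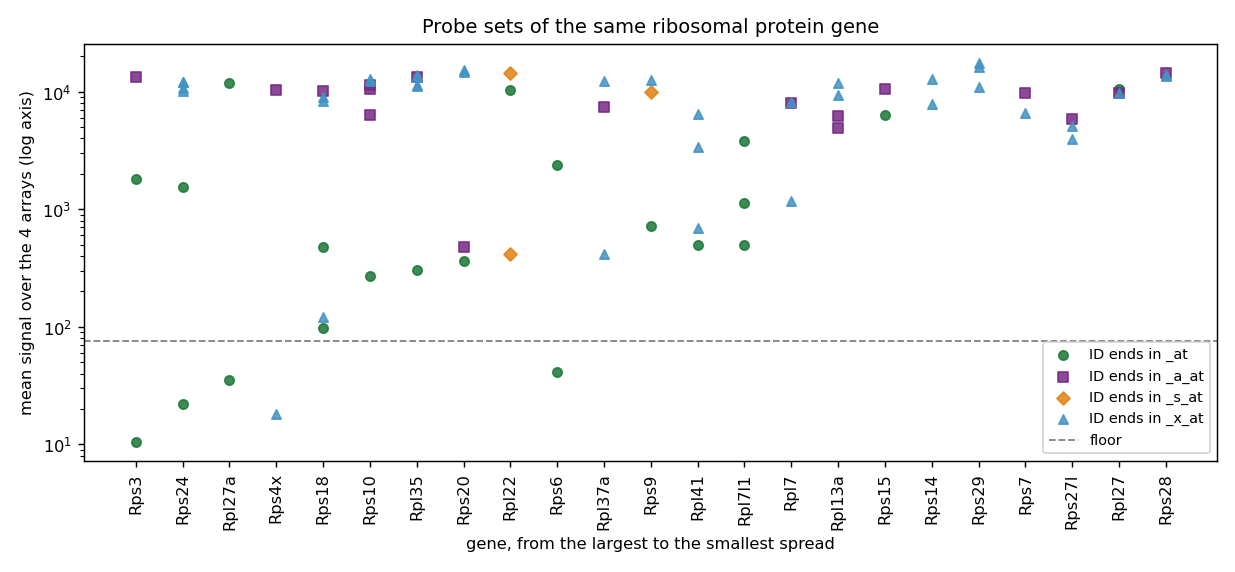
Mean signal over the 4 arrays (log axis) of each probe set of the 23 ribosomal protein genes with several probe sets, with marker and colour by the ending of the probe set ID and the floor of 76.1 as a dashed line. Plain _at probe sets make up most of the dim points, and the genes run from a spread of over 100-fold at the left to almost none for Rps28 at the right.

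The further probe sets of the members repeated the medians of the brightest ones where they were bright too. For co-culture in knockout, the 31 further probe sets with a mean signal of at least 4000 had a median log2 ratio of 0.17, and 30 of them were above 0, against -0.06 for the 19 dimmer ones. For knockout over wild type in separate culture the medians were -0.21 in the 31, with 28 below 0, and 0.15 in the 19. The 103 measured probe sets with several symbols had medians of 0.17 and -0.21 in these comparisons. They were read on the same arrays, so they repeat the array and not the culture. An exception at the gene level was the dimmest probe set of Rpl35, at 358 in knockout co-culture, 388 in wild-type co-culture, 244 in knockout separate culture and 224 in wild-type separate culture, with co-culture log2 ratios of 0.80 in wild type and 0.55 in knockout, while the 5 bright probe sets of Rpl35 had medians of 0.03 and 0.20; it was singled out after its values were seen.

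Other genes of translation were described from fixed lists. The 4 subunit genes measured whose symbols have no digit after Rpl or Rps, Rplp0, Rplp2, Rpsa and Fau, had a median of 0.17 for co-culture in knockout and -0.26 for the genotypes in separate culture, where 2 of 4 were 1.2-fold lower. They are as bright as the members, with mean signals from 9266 to 12581. Of 45 translation factors, 1 was at least 1.2-fold higher and 5 lower in knockout separate culture, with a median of -0.09, where 11.7% of all genes were higher and 8.23% lower, and 0 were 1.2-fold apart for co-culture in wild type. Of 59 genes of ribosome assembly, 4 were 1.2-fold higher and 0 lower for co-culture in wild type, 2 higher and 1 lower for co-culture in knockout, with medians of 0.05 and 0.10. The shares of all genes were 12.5% higher and 15.4% lower in wild type, and 10.8% higher and 17.9% lower in knockout. For knockout over wild type in separate culture the assembly genes had a median of -0.10, with 48 of 59 below 0 and 3 lower by 1.2-fold. Of all 10362 genes measured there, 5072 were below 0. In co-culture the assembly genes had a median of -0.04, with 0 higher and 5 lower by 1.2-fold, where 9.17% of all genes were higher and 10.5% lower.

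The mitochondrial ribosome, which is built from a separate set of proteins, was measured by 76 genes of intermediate signal, with a median of mean signals of 1969. In separate culture the median log2 ratio of knockout over wild type was -0.04, with 1 gene 1.2-fold higher and 4 lower, where 11.7% of all genes were higher and 8.23% lower. One of them was 1.5-fold apart, Mrps34 at 509 in knockout co-culture, 419 in wild-type co-culture, 395 in knockout separate culture and 606 in wild-type separate culture, -0.62 on the log2 scale. For co-culture their medians were -0.04 in wild type and -0.03 in knockout. Regulators of growth and translation, 22 of 24 measured, had medians of 0.01 for co-culture in wild type and 0.05 in knockout, and 0 passed 1.5-fold in any pairwise comparison. For Mycn the log2 ratio for co-culture in knockout, at least 0.50, is a lower bound because knockout separate culture lay under the floor, so whether it reached 1.5-fold is not known; it was singled out after its values were seen.

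Members with and without a tract placed exactly at an annotated start had medians close to each other. Those without can still carry a tract where the annotated start is off by some bases. The 7 genes printed above had a median log2 ratio of 0.13 for co-culture in knockout, against 0.16 for the 30 other measured genes with a promoter, and of -0.17 against -0.20 for the genotypes in separate culture. For co-culture in wild type the medians were 0.01 and 0.01.

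The genes of this set differed among themselves. Rps18, with the tract shown above, read 9786 in knockout co-culture, 10728 in wild-type co-culture, 8952 in knockout separate culture and 10687 in wild-type separate culture. Rps10 gave 12479 in knockout co-culture, 12968 in wild-type co-culture, 11622 in knockout separate culture and 13846 in wild-type separate culture, and Rpl35 gave 14036 in knockout co-culture, 14579 in wild-type co-culture, 12749 in knockout separate culture and 14312 in wild-type separate culture. These 3 bright genes had their lowest value in knockout separate culture.

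Rps6 read 2375 in knockout co-culture, 2237 in wild-type co-culture, 2406 in knockout separate culture and 2412 in wild-type separate culture, and Rpl14 read 2561 in knockout co-culture, 2302 in wild-type co-culture, 2593 in knockout separate culture and 2492 in wild-type separate culture. Both are of moderate signal and had their lowest value in wild-type co-culture. Rpl38 and Rps27, both with a tract, lay at opposite ends of the genotype comparison in separate culture, among members above the floor in both arrays.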

How the data were processed

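The genes, lists and comparisons were chosen with earlier results of these data known. The authors deposited MAS5 intensity values, not log-transformed, which were made with Affymetrix Expression Console 1.4, per the submitters' processing notes. Amplified cDNA from 20 ng of total RNA was hybridised, per the labels' protocols. MAS5 scaling brought the mean of each array without the outer 2% at each end to 497 or 498, so a change in total RNA cannot be seen. Of 45037 probe sets 932 had several symbols, 9160 were not listed in the platform annotation, and 34945 had 1 symbol; Entrez gene numbers matched 34741 of them to RefSeq genes and changed 0 symbols.

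Signals were raised to the floor of 76.1 and log2-transformed. Each gene was read by its brightest probe set, by mean log2 signal. A gene was measured in a comparison if 1 or more of the arrays compared exceeded the floor, and a ratio with 1 array under it is a lower bound. Genes were counted at 1.2-fold and 1.5-fold. With 1 array per group there is no replicate error. Named were, per pairwise comparison, the 5 highest and 5 lowest members above the floor in both arrays, the 3 highest and 3 lowest differences of differences, all paralogs, the 5 largest and 3 smallest probe set spreads, the 5 largest ranges over arrays, members under the floor, list genes 1.5-fold apart and Clec4n; of the marker lists only examples are given. Alternatives are given in the closing section. Python 3.11.15, numpy 2.4.6 and pandas 2.3.3 were used. The calculations were tested on simulated arrays without noise, in which set changes of 200 genes were recovered. This checks the arithmetic and not the results.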

Additional observations from a re-analysis of the deposited data

How the results depend on the processing

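No paired analysis was possible because the labels give no replicate numbers and each pairwise comparison sets 1 array against 1, and for the same reason no replicate could be left out. A fit of culture with genotype as a block, or of genotype with culture as a block, would leave 1 residual degree of freedom over the 4 arrays and was not made here. Of the medians and counts recomputed, 124 moved by less than 0.1 on the log2 scale or, as counts, by at most 1.5 times, 38 moved further and 2 medians that were at least 0.1 from 0 reversed. These 2 were the median of knockout over wild type in separate culture, at 0.010 after quantile normalization and 0.0076 relative to other genes of the same signal class, a setting added after the data were seen. Medians nearer to 0 changed sign as well: that of knockout over wild type in co-culture was 0.017 after quantile normalization (-0.0070 relative to the signal class), and that for co-culture in wild type was -0.0088 after quantile normalization and -0.0034 relative to the signal class. The median for co-culture in knockout was 0.0046 and 0.020 under these settings, that of the difference of changes 0.029 and 0.019, and the median range over the arrays 0.105 after quantile normalization. Under both settings 0 members were 1.2-fold lower in knockout separate culture, and 0 were 1.2-fold higher for co-culture in knockout or in the difference of changes. A common median gave -0.10 for co-culture in wild type, 22 members lower in knockout separate culture, 2 higher for co-culture in knockout and 10 higher in the difference. Without _x_at probe sets the median spread between probe sets was 4.64 on the log2 scale, against 4.13, and the counts were 2 higher and 1 lower for co-culture in knockout, 2 lower in knockout co-culture, and 1 higher and 4 lower in the difference. The median over a gene's probe sets gave 6 members lower in knockout separate culture, 2 lower in knockout co-culture and 2 higher for co-culture in knockout. With no floor 8 members were higher and 1 lower for co-culture in knockout, 2 lower for co-culture in wild type, 3 higher and 2 lower in knockout co-culture, and 5 higher and 4 lower in the difference. A floor of 2 times the median left 1 higher for co-culture in wild type, 1 higher in knockout separate culture and 1 lower in the difference. When the brighter array had to reach 10 times the floor, Rps27 and Rpl39 were no longer tested, and 0 were higher for co-culture in wild type, 0 higher in knockout separate culture, 0 lower in knockout co-culture and 0 lower in the difference. The cause of the other shifts was not tested. Restricting the members to core subunit genes, or adding the 4 subunit genes without a digit, moved none of the 15 values recomputed for each. With 1 array per group, no difference here has a replicate error, and signals near the floor limit what can be read of Rps27 and Rpl39.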
